A study of Arabidopsis thaliana with 6 samples.

Results

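FBS1 (AT1G61340) lies on chromosome 1 of Arabidopsis thaliana, and this account covers the genes on either side of it. F-box proteins such as FBS1 are the part of an SCF ubiquitin ligase that binds the protein to be tagged, and FBS1 transcripts are known to rise under many stresses. A gene knocked out by an insertion is surrounded by neighbors that are inherited with it. Their RNA levels are therefore a basic readout of any insertion line, next to those of genes elsewhere in the genome.

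Every gene with an AGI number from AT1G58000 to AT1G62421 was taken if 1 array probe set was tied to that locus alone, and a gene with more than 1 probe set was read at its brightest one, by the mean of all 6 arrays. This gave 163 genes of the 13567 that could be tied in the same way in the whole genome. The platform annotation tied 155 of them, and the other 8 were tied only because the study listed them among its differing genes. Of the 382 protein-coding genes annotated in the stretch, 41.6% had such a probe set. AGI numbers follow gene order, with 97 of the 163 genes on the lower-numbered side of FBS1 and 66 on the higher-numbered side. Distance from FBS1 was counted in annotated protein-coding genes, including those without a probe set, and reached 265 genes on the lower side and 113 on the higher side.

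RNA came from whole 12 day-old seedlings of WT and of fbs1-1, a RIKEN line with a transposon in the first intron of FBS1. Both were grown for 5 days at 24 °C and then for 7 days at 10 °C, so that every sample had been chilled. Each genotype was measured on 3 Affymetrix ATH1 arrays, labelled as biological replicates, and fbs1-1 is a single insertion line. The labels give the No-0 accession for all 6 samples but name the 3 WT arrays Nd0, so an effect of the insertion and any other difference between these seed stocks cannot be told apart. Whole seedlings mix many cell types, and fewer cells of a type cannot be told apart from less RNA per cell.

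Levels are log2 intensities of probe sets, and whether the probes bind RNA of both seed stocks equally was not tested. The array medians lay between 2.62 and 2.72, and each array had 40.2% to 40.8% of its values under 2. Such values, in the bottom part of the scale, are called low here. Differences are WT minus fbs1-1, so a positive value means a higher level in WT, and a gene was called when limma's Benjamini-Hochberg adjusted p over all 22746 probe sets was under 0.05. No probe set was tied to FBS1 itself, and its own level was not analysed here. The leaf gene RCA was high in both genotypes, at 11.5 in WT and 11.6 in fbs1-1, as was PYK10, a root gene, at 10.03 and 10.10. The seed marker M17 and 2 pollen markers were low on all arrays, and none of these markers was called. The cold-induced genes COR47 (8.13 in WT, 7.44 in fbs1-1, adjusted p = 0.0596) and COR15A (9.58 and 10.16, adjusted p = 0.143) were at high levels in both genotypes and were not called. EXPA7, a root hair gene, had 2.81 and 3.04 and was not called either, and the remaining markers looked for had no probe set tied to them alone.

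Among genes with a probe set of their own, those closest to FBS1 did not pass the test, and those that did lay farther out. Of these, 16 lay on the lower-numbered side and 1 on the higher-numbered side. The 16 include the 8 tied only through the study's lists, and by the platform annotation 8 of 89 and 1 of 66 were called. With 2.80% of all genes tied in this way called, the lack of calls close to FBS1 is not set apart from that share. A probe set shared by 4 NLR immune receptor genes 3 to 17 genes away did pass. Among the 163 genes, 17 were called, 10 of them higher in WT and 7 higher in fbs1-1. Over all probe sets the called share was 3.25% (1.57% higher in WT, 1.68% higher in fbs1-1), and over all genes tied to 1 locus it was 4.19% (2.09% and 2.10%). The share of 10.4% in the flanking genes cannot be read against these values directly, because the 8 genes tied through the study's own lists were there as called genes, and each of the 8 was called. Among the 155 genes tied by the platform annotation, 9 were called (5.81%), against 2.80% of all genes tied in this way, 4.28% in the rest of chromosome 1 and 2.26% on the other chromosomes. These shares were set side by side without a test.

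**Figure D1:**
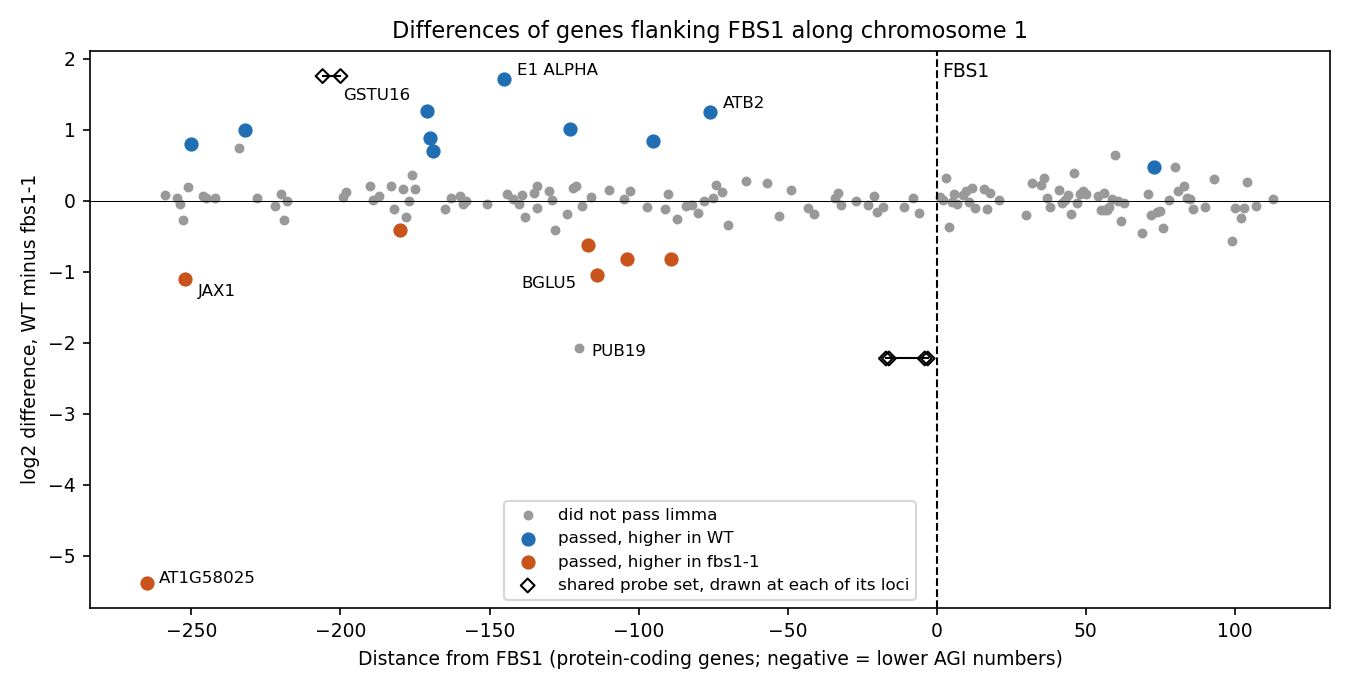
Differences of the 163 genes flanking FBS1, plotted against distance from FBS1 in protein-coding genes (x axis) as log2 level in WT minus that in fbs1-1 (y axis, means of 3 arrays per genotype). Filled colored points passed limma, grey points did not, and open diamonds joined by a line mark a probe set shared by several loci. No colored point lies between 76 genes on the lower side and 73 genes on the higher side.

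The 10 measured genes nearest to FBS1 on the higher-numbered side lay 1 to 11 genes away and held most of a cluster of S-locus lectin receptor kinases, cell surface proteins with a lectin-like outer part and a kinase inside the cell. The first neighbor on this side, AT1G61350, had levels of 4.13, 3.89 and 4.15 in WT and 4.03, 4.01 and 3.97 in fbs1-1. The groups overlapped, and the difference was 0.05 with a 95% interval from -0.18 to 0.29 (limma adjusted p = 0.891). The next gene, the receptor kinase gene AT1G61360, had 2.26, 2.54 and 2.59 in WT and 2.32, 2.61 and 2.43 in fbs1-1, with a difference of 0.01 and an interval from -0.27 to 0.29. For both genes the interval leaves no room for a 2-fold change in either direction.

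The third and the fourth neighbor on this side were the ones that stood farthest from 0, in opposite directions. AT1G61370, another receptor kinase gene, had 2.57, 2.38 and 2.61 in WT and 2.07, 2.15 and 2.38 in fbs1-1. WT was above fbs1-1 on all arrays, by only a small margin at its lowest, and the difference of 0.32 (95% interval 0.06 to 0.59) was not called (adjusted p = 0.224). SD1-29, a receptor kinase that senses bacterial fatty acid derivatives, had 4.19, 3.69 and 3.79 in WT and 4.33, 4.30 and 4.17 in fbs1-1. WT replicate 1 overlapped the mutant arrays, and the difference of -0.37 (interval -0.69 to -0.06) was not called (adjusted p = 0.246). Without WT replicate 1 the same gene had a difference of -0.52 and an adjusted p of 0.0392, the one setting under which it was called. The other 6 genes of the 10, AT1G61390, AT1G61400, AT1G61410, AT1G61420, AT1G61430 and AT1G61440, were low on all 6 arrays.

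On the lower-numbered side, fewer of the nearest genes had a probe set, and the 10 nearest lay 6 to 33 genes from FBS1. They were AT1G61280, AT1G61260, AT1G61240, AT1G61170, AT1G61160, AT1G61150, SCPL32 (a serine carboxypeptidase-like gene), AT1G61100, AT1G61080 and LCR66 (a defensin-like peptide gene), and 6 of them were low on all arrays. AT1G61150, 21 genes away, had 4.02, 4.22 and 4.09 in WT and 3.96, 4.21 and 3.94 in fbs1-1. AT1G61100, 27 genes away, had 4.24, 4.38 and 4.65 in WT and 4.12, 4.63 and 4.53 in fbs1-1. WT and fbs1-1 overlapped in all 10, the largest difference in size was 0.17, and the smallest adjusted p was 0.608. Together their 95% intervals ran from -0.44 to 0.36.

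**Figure D2:**
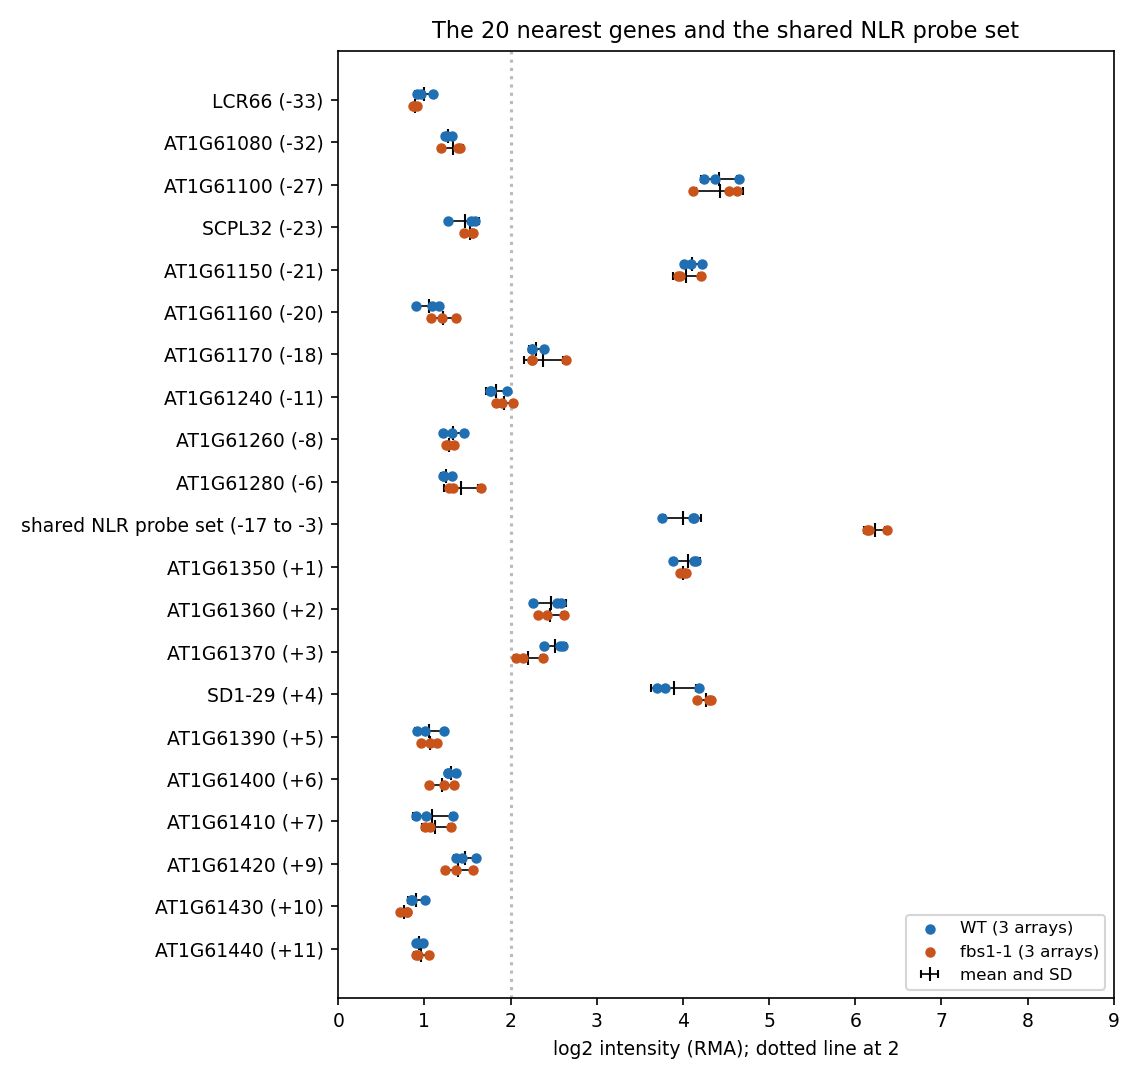
Levels of the 10 measured genes nearest to FBS1 on each side and of the shared NLR probe set described next (x axis, log2 intensity, 1 point per array with the mean and SD of 3 arrays; y axis, genes in chromosome order with their distance from FBS1). WT and fbs1-1 points lie close together in all 20 genes, where the largest difference in size is 0.37 (SD1-29), and far apart only in the shared probe set.

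The strongest difference beside FBS1 was in a probe set that matches 4 genes and is therefore not among the 163. It covers AT1G61180, AT1G61190, AT1G61300 and AT1G61310, which lie 17, 16, 4 and 3 genes from FBS1 on the lower side and encode NLR proteins, the receptors inside plant cells that detect pathogen effectors. Its levels were 4.11, 3.76 and 4.13 in WT and 6.16, 6.14 and 6.37 in fbs1-1. The groups were far apart, with means of 4.00 ± 0.21 and 6.22 ± 0.13 (SD, n = 3 each). The difference was -2.22 (SE 0.13, 95% interval -2.51 to -1.93), a 4.67-fold higher level in fbs1-1 with an adjusted p of 6.87e-05. It was similar within both groups of arrays described below, at -2.05 and -2.31. Which of the 4 genes gave this signal cannot be told apart on the array. The other shared probe set in this immediate stretch matches AT1G61330 and AT1G61320, the first and the second gene beside FBS1 on the lower side. It was low on all arrays, with means of 0.93 in WT and 0.81 in fbs1-1.

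Of 17 probe sets shared by several loci with at least 1 in the stretch, 8 were low on all arrays and 2 were called. Over all probe sets 3.25% were called, and a set of 17 is too small for the count to be read against that share. The second called one matches the NLR genes AT1G58807 and AT1G59124, 206 and 200 genes away on the lower side, and it moved in the opposite direction. It measured 5.21, 4.81 and 5.18 in WT and 3.10, 3.49 and 3.34 in fbs1-1, again without overlap. WT was higher by 1.76 (3.38-fold, 95% interval 1.43 to 2.09, adjusted p = 0.000535).

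Among genes with a probe set of their own, the nearest called gene was ATB2, 76 genes away on the lower side, and AT1G62030, 73 genes away on the higher side. Between them lay 67 measured genes, all tied by the platform annotation, of which 0 were called, where 2.80% of all genes tied in this way were. At that share only a few calls would fall among 67 genes, and 33 of the 67 were low on all 6 arrays, so nothing particular to the run can be read from the count. In 7 of the 67 the genotypes did not overlap, against 19.7% of all probe sets, and 7 had an unadjusted p under 0.05, against 14.7% of all probe sets. By rank products, the test of the study's methods, 0 of the 67 passed as well, where 2.34% of all probe sets passed. The median absolute difference of the 67 genes was 0.10, and their 95% intervals ran from -0.80 to 1.08.

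The gene closest to a call in this run was AT1G61890, a transporter family gene 60 genes away on the higher side. Its levels were 5.47, 5.12 and 5.41 in WT and 5.12, 4.45 and 4.48 in fbs1-1. The lowest WT array and the highest mutant array coincided, and the difference of 0.65 (95% interval 0.22 to 1.08) gave an adjusted p of 0.125. The arrays carry numbers in the labels that fall into a first group, 43 and 45 (replicate 1 of each genotype), and a second, 59 to 62. The difference of AT1G61890 was 0.35 between the first 2 arrays and 0.80 in the second group. With the array group as a block its adjusted p was 0.0247, and without fbs1-1 replicate 1 it was 0.0226, so that on those settings the nearest call on the higher side was 60 genes away. Over 17 alternatives that count single-locus genes this distance ran from 4 genes (SD1-29, without WT replicate 1) over 36 genes (second array group alone) to 73, and in 9 of the 17 no gene on the higher side was called. On the lower side it was 76 genes in all 17, while the shared NLR probe set lies nearer.

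Counted by distance on both sides, 0 of 23 genes were called at 1 to 25 genes from FBS1 and 0 of 23 at 26 to 50 genes. At 51 to 100 genes 4 of 47 were called, from there up to 200 genes 9 of 52, and beyond 200 genes 4 of 18. The 8 genes tied through the study's lists all lay in the last 3 of these bins. Among genes tied by the platform annotation the counts there were 3 of 46, 5 of 48 and 1 of 15, against 2.80% of all genes tied in this way, with no steady rise with distance. Low genes were most frequent at 1 to 25 genes, where 16 of 23 were low on all arrays and 3 had a mean of at least 3. At 26 to 50 genes 9 of 23 were low and 8 had such a mean. At 51 to 100 genes these counts were 16 and 20 of 47, and from there up to 200 genes 28 and 17 of 52. Beyond 200 genes they were 8 and 5 of 18.

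The sides differed in count. On the lower side 16 of 97 genes were called, 8 of 89 among those tied by the platform annotation (8.99%), and on the higher side 1 of 66 (1.52%). Of all genes tied by the platform annotation 2.80% were called, and 4.28% in the rest of chromosome 1. In 66 genes, 1 call is not set apart from 2.80%. The higher side spans fewer genes, and the lower side alone holds genes more than 113 genes from FBS1. Within 51 to 100 genes, where both sides are covered, the counts were 3 of 18 on the lower side (2 of 17 by the platform annotation alone) and 1 of 29 on the higher side. The difference between the sides was not tested.

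**Figure D3:**
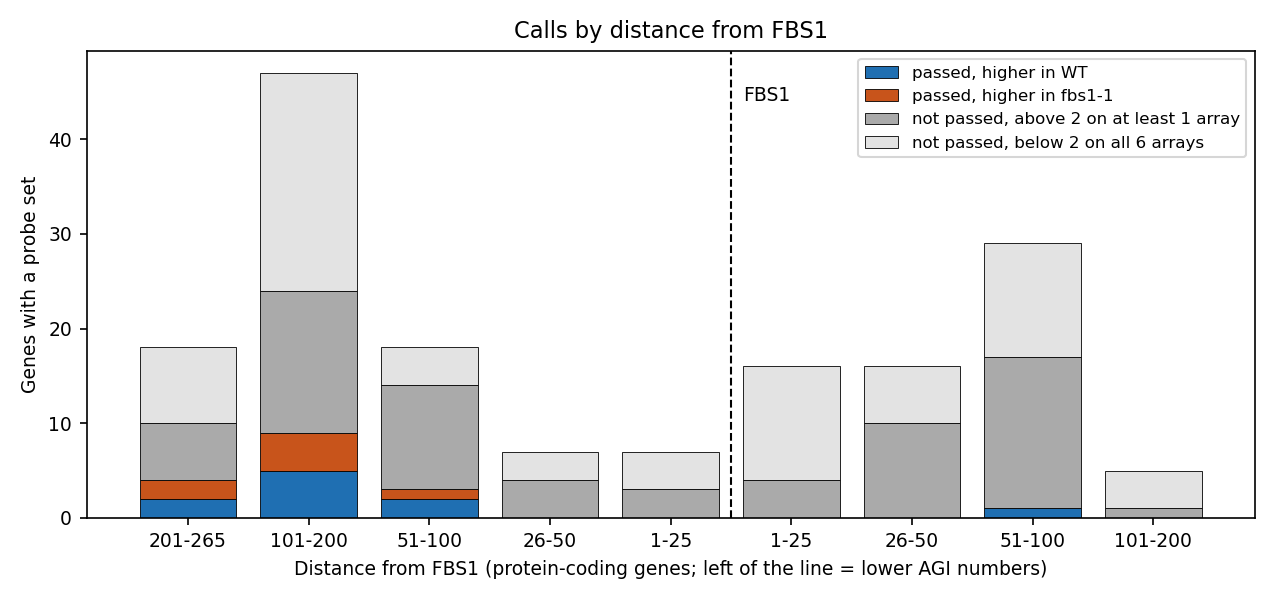
Flanking genes by distance from FBS1 (x axis, bins of protein-coding genes) and their number (y axis), split into genes called in each direction, genes not called, and uncalled genes low on all 6 arrays, with the lower-numbered side left of the dashed line. No gene was called at 1 to 50 genes on either side, where 2.80% of all platform-tied genes were called. Of the 17 calls 16 lie on the lower side, and 8 of these 16 were tied only through the study's lists.

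The gene that differed most was also the farthest, AT1G58025, 265 genes from FBS1. It measured 1.77, 1.57 and 1.24 in WT and 6.75, 7.31 and 6.65 in fbs1-1. All WT arrays were low, whereas all mutant arrays were far above the array median. The means of 1.52 ± 0.27 and 6.90 ± 0.36 (SD, n = 3 each) differed by -5.38 (SE 0.20, 95% interval -5.83 to -4.93), a 41.6-fold higher level in fbs1-1 (adjusted p = 3.93e-06). Because the WT level lies in the bottom part of the scale, the fold depends on how such values were made. Whether its probes bind RNA of both seed stocks equally was not tested. No role is annotated for this gene in the sources used here. Its measured neighbor AT1G58070, 259 genes away, had means of 2.27 and 2.19. The nearest measured genes beyond the edge, AT1G57906 and AT1G57850, had 1.21 and 1.25 in WT and 1.16 and 1.31 in fbs1-1.

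The 5 called genes listed for carbon or plastid metabolism, E1 ALPHA, TPS10, HEMA1, BCA6 and CRR28, were each higher in WT. All but CRR28 were tied only through the study's list of genes higher in WT, so that their direction was fixed by that choice. E1 ALPHA encodes the alpha subunit of the E1 enzyme of pyruvate dehydrogenase, which feeds carbon from glycolysis into the citric acid cycle. Its levels were 7.31, 7.52 and 7.45 in WT and 5.33, 5.97 and 5.85 in fbs1-1. The groups did not overlap, and the difference was 1.71 (SE 0.16, 95% interval 1.34 to 2.09), 3.28-fold higher in WT (adjusted p = 0.00122). TPS10, a member of the trehalose phosphate synthase family, had 3.84, 3.67 and 4.28 in WT and 2.71, 3.04 and 2.996 in fbs1-1. Every WT array was above every mutant array, and the difference was 1.02 (SE 0.17, adjusted p = 0.0155). This call was lost without fbs1-1 replicate 1 (adjusted p = 0.0538) and without fbs1-1 replicate 3 (0.0661). The other members of the carbon and sulfur list with a probe set, the ATP-citrate lyase subunit gene ACLA-2 and the anthocyanidin reductase gene BAN, were not called.

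HEMA1 encodes glutamyl-tRNA reductase, the first committed enzyme of the pathway to chlorophyll and heme. It measured 7.77, 7.28 and 7.54 in WT and 6.73, 6.83 and 6.05 in fbs1-1. WT was higher on all arrays, by 0.99 on average (SE 0.21, 1.99-fold, adjusted p = 0.0435). BCA6, a beta carbonic anhydrase that interconverts carbon dioxide and bicarbonate, had 5.59, 5.52 and 5.91 in WT and 4.56, 4.94 and 5.13 in fbs1-1. The groups again did not overlap, and the difference was 0.80 (SE 0.16, adjusted p = 0.0382). Leaving out any 1 of the 6 arrays ended both calls, with adjusted p-values of up to 0.132 for HEMA1 and 0.128 for BCA6.

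CRR28, 169 genes from FBS1, belongs to the pentatricopeptide repeat proteins that act on RNAs of the chloroplast NDH complex. Its levels were 2.81, 2.47 and 2.79 in WT and 2.19, 1.93 and 1.84 in fbs1-1. WT was above fbs1-1 throughout, by 0.70 (SE 0.13, adjusted p = 0.0282). The call was lost without WT replicate 1 (0.0648), WT replicate 3 (0.109), fbs1-1 replicate 2 (0.110) or fbs1-1 replicate 3 (0.129). Of 10 genes listed for the plastid and photosynthesis 5 had a probe set, and HEMA1, CRR28 and BCA6 were the 3 higher in WT. Of these 3, 2 had been tied through the study's list. The gene list was written from background knowledge, and whether BCA6 acts in the plastid was not checked. The other 2, AT1G60000 and AT1G60990, were not called.

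AT1G60000 had the highest mean level of all 163 genes. It measured 8.40, 8.49 and 8.47 in WT and 8.38, 8.29 and 8.37 in fbs1-1, a difference of 0.11 (adjusted p = 0.672). After it came AT1G61780 with a mean of 7.28, HEMA1 with 7.04, E1 ALPHA with 6.57 and AT1G62020 with 6.41. Of these 5 well-measured genes, HEMA1 and E1 ALPHA were the ones that were called, and both had been tied only through the study's list. The others, tied by the platform annotation, were not called.

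ATB2, the called gene nearest to FBS1 on the lower side, encodes an NAD(P)-linked oxidoreductase of the aldo-keto reductase family. It measured 6.47, 6.39 and 6.45 in WT and 5.23, 5.06 and 5.25 in fbs1-1. Arrays of 1 genotype lay close together and the genotypes far apart, with a difference of 1.25 (SE 0.10, 2.39-fold, adjusted p = 0.000395). ATB2 was 1 of 6 aldo-keto reductase genes of the stretch with a probe set. AT1G60690 and AT1G60730, both within a few genes of ATB2, had means of 3.29 and 2.68 in WT and 3.28 and 2.45 in fbs1-1 and were not called.

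GSTU16 encodes a tau class glutathione S-transferase, an enzyme that attaches glutathione to reactive and foreign molecules. Its levels were 4.32, 3.67 and 4.47 in WT and 2.81, 2.87 and 2.96 in fbs1-1. All mutant arrays lay below all WT arrays, and the difference was 1.27 (SE 0.19, 2.41-fold, adjusted p = 0.0106). The call was narrowly lost without fbs1-1 replicate 2 (0.0502) or fbs1-1 replicate 3 (0.0509). GSTU15, a few genes away, was low on all arrays, with means of 1.20 and 1.04.

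Immediately after GSTU16 in gene order came AT1G59710, a gene with a DUF569 domain of unknown function, and CRR28, so that 3 genes at 171, 170 and 169 genes from FBS1 were each called and each higher in WT. AT1G59710 had 4.37, 4.24 and 4.86 in WT and 3.60, 3.84 and 3.38 in fbs1-1. The groups did not overlap, and the difference was 0.88 (SE 0.18, adjusted p = 0.0372). Leaving out any 1 array ended this call, with an adjusted p of up to 0.157.

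VPS34, 95 genes from FBS1, encodes the phosphatidylinositol 3-kinase of vacuolar sorting and autophagy. It measured 4.09, 4.17 and 4.19 in WT and 3.40, 3.27 and 3.26 in fbs1-1. The 2 genotypes were well separated, with a difference of 0.84 (SE 0.09, 1.79-fold, adjusted p = 0.00242). VPS34 was tied only through the study's list of genes higher in WT, so its direction was fixed by that choice. Of 5 measured genes listed for membrane traffic and autophagy, the 4 tied by the platform annotation were not called. ATG8C, which encodes a ubiquitin-like protein of the autophagosome membrane, had means of 4.29 in WT and 4.44 in fbs1-1, and AT1G62020 had 6.31 and 6.52.

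BGLU5, a beta-glucosidase gene tied only through the study's list of genes higher in fbs1-1, had 2.13, 2.09 and 1.97 in WT and 3.11, 3.20 and 3.04 in fbs1-1. The arrays of each genotype agreed closely and the groups did not overlap, with a difference of -1.05 (SE 0.10, 2.07-fold higher in fbs1-1, adjusted p = 0.000960). The beta-glucosidase genes on the other side of FBS1, BGLU45 and BGLU46, were not called, with means of 1.15 and 1.65 in WT and 1.09 and 1.78 in fbs1-1.

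AT1G60590 encodes a protein like the pectin lyases, which cut the pectin of the cell wall. It measured 5.51, 5.78 and 5.71 in WT and 6.34, 6.65 and 6.46 in fbs1-1. Every mutant array was above every WT array, by 0.82 on average (difference -0.82, SE 0.12, adjusted p = 0.00919). PG1, a polygalacturonase gene whose product also acts on pectin, had 3.26, 2.90 and 2.97 in WT and 3.59, 3.95 and 4.05 in fbs1-1. The groups did not overlap, and the difference of -0.82 (SE 0.15, adjusted p = 0.0234) was -0.33 between the first 2 arrays and -1.07 in the second group. The PG1 call was lost without WT replicate 2 (0.0906), WT replicate 3 (0.0901), fbs1-1 replicate 2 (0.0968) or fbs1-1 replicate 3 (0.106). In the list of pectin and polygalacturonase genes, 2 of 3 measured members were higher in fbs1-1, and PG1 had been tied only through the study's list of genes higher in fbs1-1.

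The called defense genes with a probe set of their own, JAX1 and CW9, were low on all WT arrays. JAX1, a jacalin-type lectin required for resistance to potexviruses, was tied only through the study's list of genes higher in fbs1-1. Its levels were 0.93, 0.95 and 0.93 in WT and 2.34, 2.05 and 1.73 in fbs1-1. WT sat at the bottom of the scale on all arrays, and fbs1-1 was higher by 1.10 on average (difference -1.10, SE 0.15, adjusted p = 0.00636). CW9, a gene of the NLR family, had 1.19, 1.19 and 1.24 in WT and 1.58, 1.71 and 1.59 in fbs1-1. All 6 arrays were low although the groups did not overlap, and the difference of -0.42 (SE 0.09, adjusted p = 0.0465) lost its call when any 1 array was left out (adjusted p up to 0.166). Of 16 listed NLR genes 6 had a probe set of their own and 4 of these 6 were low on all arrays, so most NLR genes here were read only through shared probe sets or not at all.

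**Figure D4:**
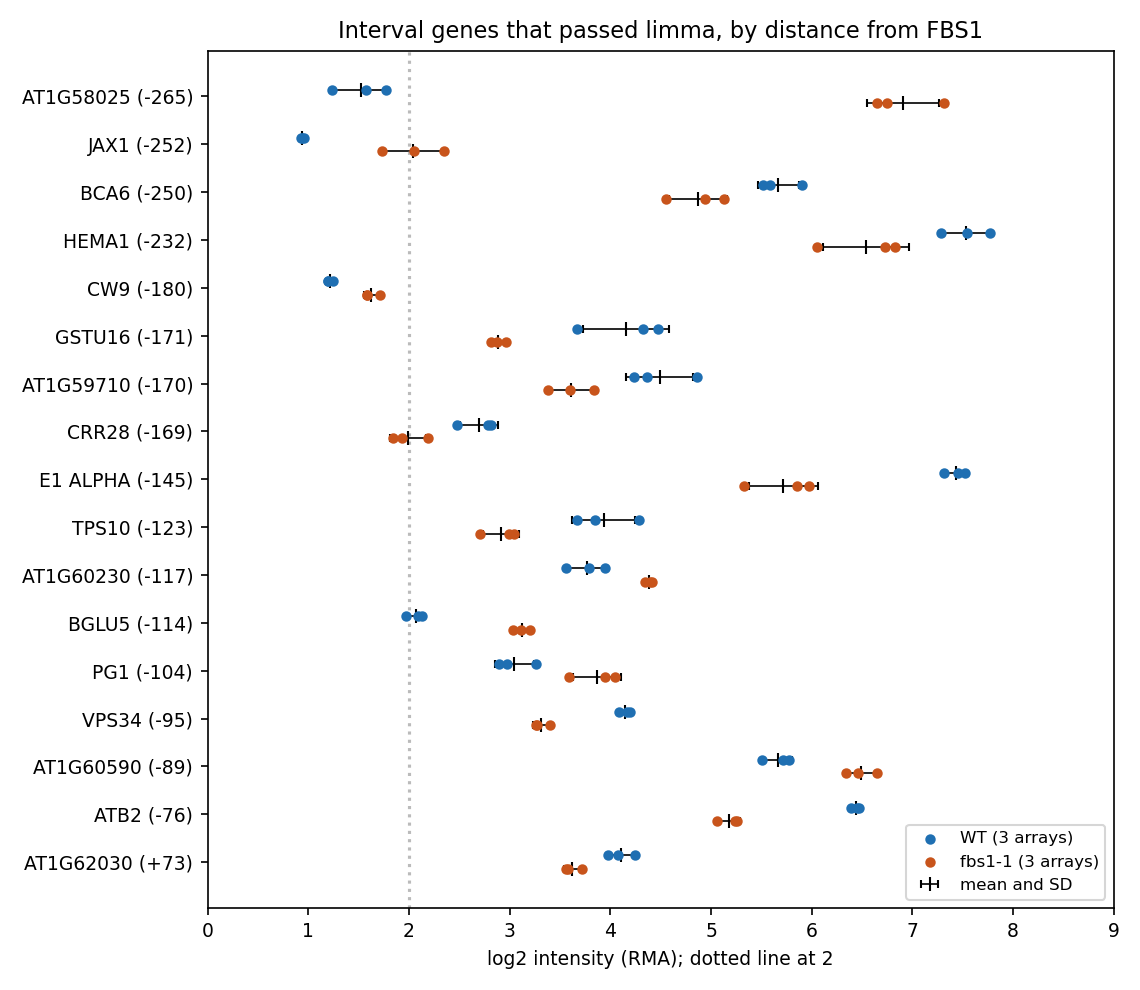
Levels of the 17 called genes on each of the 6 arrays (x axis, log2 intensity; 1 point per array with mean and SD, WT and fbs1-1 in different colors), ordered along chromosome 1 from AT1G58025 to AT1G62030 (y axis). In every gene the 3 points of one genotype lie apart from the 3 of the other, most widely in AT1G58025.

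The remaining called genes have no annotated role in the sources used here. AT1G60230, 117 genes away, had 3.95, 3.78 and 3.56 in WT and 4.41, 4.34 and 4.39 in fbs1-1. The mutant arrays lay above WT, with a difference of -0.62 (SE 0.12, adjusted p = 0.0270), and without any 1 array other than WT replicate 1 the call was lost (adjusted p up to 0.114). AT1G62030, the single called gene of the stretch on the higher side, had 4.25, 3.98 and 4.08 in WT and 3.58, 3.56 and 3.72 in fbs1-1. The groups did not overlap, and the difference of 0.48 (SE 0.11, 1.40-fold, adjusted p = 0.0481) lost its call when any 1 array was left out (adjusted p up to 0.166). It did not pass rank products either.

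All 17 called genes differed in the same direction between the first 2 arrays and in the second array group, which the choice of called genes favors. Of the 17, 13 passed rank products too. AT1G58025, JAX1, E1 ALPHA, BGLU5, VPS34, AT1G60590 and ATB2 stayed called whichever array was left out. Of these, JAX1, E1 ALPHA, BGLU5 and VPS34 were tied only through the study's lists, which were drawn from the same arrays. The number called fell from 17 to 10 without WT replicate 2, 9 without WT replicate 3, 8 without fbs1-1 replicate 2 and 7 without fbs1-1 replicate 3. Leaving out WT replicate 1 gave 14 and leaving out fbs1-1 replicate 1 gave 13. By the platform annotation alone these shares were 1.94% to 5.16%, against 1.04% to 2.48% of all genes tied in this way.

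The largest difference that was not called was that of PUB19, 120 genes from FBS1, which encodes a U-box ubiquitin ligase that acts in abscisic acid and drought responses. It measured 4.31, 2.37 and 2.35 in WT and 6.57, 4.12 and 4.55 in fbs1-1. Replicate 1 was the highest array of each genotype, and WT replicate 1 lay within the mutant range. The difference of -2.07 had a wide interval, from -3.64 to -0.50 (SE 0.69, 4.20-fold, adjusted p = 0.184). Within the first 2 arrays it was -2.26 and within the second group -1.98, and with the array group as a block the adjusted p was 0.000175. PUB19 also passed rank products, the single flanking gene that did so without passing limma.

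After PUB19 the largest differences without a call were in ZW9, AT1G61890, AT1G62290 and AT1G62085. ZW9, 234 genes away, had 2.35, 3.23 and 3.17 in WT and 2.26, 2.23 and 2.05 in fbs1-1. WT replicate 1 lay next to the mutant arrays, and the difference of 0.74 (adjusted p = 0.131) became 1.02 (adjusted p = 0.00337) without that array. AT1G62290 was higher in fbs1-1 by 0.57 (difference -0.57, adjusted p = 0.148), and without fbs1-1 replicate 1 its adjusted p was 0.0436. AT1G62085, an mTERF family gene, was higher in WT by 0.47 (adjusted p = 0.0772).

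Of the gene lists, 5 held no called member, which in lists this short is not set apart from the 2.80% of platform-tied genes called overall. The S-locus lectin receptor kinases had 14 of 15 listed genes on the array, 11 of them low on all 6 arrays, and a largest difference of 0.37 in size (SD1-29). The mTERF family, whose proteins act on organelle gene expression, had 5 measured genes of 9, with the smallest adjusted p at AT1G62085. Of the transporters 3 of 14 were measured, and of the transcription and hormone regulators 6 of 13, including WRKY6 with means of 3.12 in WT and 3.23 in fbs1-1. The ubiquitin and F-box list had 2 of 10 measured, PUB19 and AT1G60400. AT1G61660, of the transcription and hormone regulators and 36 genes away, was called only in the second array group (difference 0.72, adjusted p = 0.0258). On all 6 arrays its adjusted p was 0.623.

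Over all 163 genes the median difference was 0.02 against -0.01 over all genes, and the median absolute difference was 0.12 against 0.10. In 37 of the 163 genes (22.7%) the genotypes did not overlap, where 19.7% of all probe sets did not, and 77 genes were low on all arrays. At the higher-numbered edge the last genes inside, AT1G62350 and AT1G62410, had means of 1.63 and 1.05 in WT and 1.71 and 1.03 in fbs1-1. Just outside, AT1G62422 had 3.03 and 2.91, and CDS1, a CDP-diacylglycerol synthase of phospholipid synthesis, had 3.21 in WT and 4.04 in fbs1-1. CDS1, 117 genes from FBS1 and not among the 163, was called (difference -0.84, limma adjusted p = 0.0147). It was tied only through the study's list of genes higher in fbs1-1, so its direction was fixed by that choice.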

How the data were processed

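The authors normalized the 6 ATH1 arrays with RMA in R, and deposited 1 log2 intensity for each probe set and array, without centring of genes. The version and the background step are not given in the sources used here. No read depth exists for arrays, and their number limits the precision.

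The 64 control probe sets were removed, and limma 3.58.1 in R 4.3.3 was fitted to the other 22746 with a genotype term alone and moderated variances. Benjamini-Hochberg adjustment ran over all of them. On simulated arrays, 99% of 100 genes changed 2-fold were recovered, with 13 unchanged ones called. The share of such changes recovered on the 6 measured arrays was not tested. There PUB19, with a 4.20-fold difference, was not called (limma adjusted p = 0.184). Rank products, the methods' test, were implemented anew in Python 3.11.15 and run over 9 array pairs with 100 permutations, at a percentage of false prediction under 0.05.

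Of the probe sets, 13513 had 1 gene in the platform annotation, 503 several, and 8730 were not in it. The study's supplementary gene lists served only to tie further probe sets to genes. Gene order came from TAIR10.1. Coordinates were left out, since the array annotation names no matching build. The members, gene lists and tests were chosen with earlier results of these data known, and family lists were written from background knowledge.

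Genes named are all called ones, the 10 nearest on each side, the 5 highest, the 5 largest differences without a call, up to 3 per gene list and 2 on either side of each edge. Within lists the choice was made with values seen. Alternatives were other scalings, filters, variance models, blocks, thresholds and left-out arrays. Figures were drawn with matplotlib 3.10.9.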

Additional observations from a re-analysis of the deposited data

How the results depend on the processing

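The 19 called genes and shared probe sets kept their sign in all 321 alternative values. Of 463 values for 28 uncalled genes, 23 in 9 genes changed sign, each from a difference of at most 0.08 in size. Over all 784 values, 687 kept their side of the threshold, 85 lost the call and 12 gained one. Of the 163 genes, 19 were called with the array group as a block, 16 with arrays centred on their median, 14 with quantile normalization and 14 by rank products. These counts include genes tied through the study's lists. By the platform annotation alone the first 3 settings gave 7.10%, 5.16% and 4.52%. Over all genes tied in this way the shares were 4.70%, 3.10% and 3.02%, and 2.34% of all probe sets passed rank products. At an adjusted p under 0.01, 7 were called (4.29%), 3 higher in WT and 4 in fbs1-1, 3 of them tied by the platform annotation and 4 over 100 genes from FBS1. At a change of at least 2-fold, 7 were called (4.29%), 4 higher in WT and 3 in fbs1-1, 3 by the platform annotation, 1 at 51 to 100 genes and 6 beyond. The share over all genes was not computed at these thresholds. Both shares of 4.29% include genes tied through the study's lists and have no value to be read against. With low probe sets left out, 15 of 77 genes were called (19.5%), a share raised by construction, since fewer genes were counted and a difference can lift a gene's mean over the filter. Among platform-tied genes it was 11.4% with that filter, against 5.35% of all such genes. In the second array group alone 1 gene within 50 genes was called, AT1G61660. Leaving out 1 array gave 7 to 14 calls (4.29% to 8.59%), 3 to 7 higher in WT, 4 to 7 in fbs1-1, 3 to 8 by the platform annotation, 0 to 1 within 50 genes, 3 to 5 at 51 to 100 and 4 to 10 beyond. By the platform annotation alone these shares were 1.94% to 5.16%, against 1.04% to 2.48% of all genes tied in this way.

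Samples with the same replicate number did not pair by the check of their deviations (r = 0.282, 0.0881 and 0.144), and not every sample correlated best with its own number. Pairs within an array group all had a positive r (0.282 in the first, 0.0881 to 0.144 in the second). Pairs across the groups all had a negative r (-0.160 to -0.233). The main fit holds no term for these groups, and with them as a block 627 of all platform-tied genes were called, against 373 without. With a replicate block 17 genes were called, 15 of them shared with the fit without it. PUB19 and AT1G61890 were gained, while CW9 and AT1G62030 were lost (adjusted p = 0.0649 and 0.0507).

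Limits: 41.6% of the coding genes of the stretch had a probe set, and most measured ones within 25 genes of FBS1 were low. With 3 arrays per genotype, calls near the threshold depend on single arrays.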
